A study of Homo sapiens with 96 samples.

Results

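FIRRE is a long non-coding RNA gene on the minus strand of chromosome X, at chrX:131688779-131830862 in the GRCh38 build, and GENCODE release 44 gives it 17 transcripts (gene ENSG00000213468). In the list of A-to-I editing sites of K562 cells, 55 of the 4149 sites lay on its strand between the ends of the gene. They were chosen by position, in the gene with most sites in the list, so their number is a description of the choice and not a result. The public editing databases already held 50 of them (annotated sites) and did not hold the other 5 (unannotated sites). From Sanger sequencing of some sites, the authors estimate that most but not all sites in the list are truly edited. The sites are therefore taken here as listed sites, not as proven ones. The authors placed all 55 in a lncRNA intron, and none touched an exon of any FIRRE transcript in GENCODE. The closest exon was 119 bases away for the nearest site and 14252 bases away for the farthest.

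A-to-I editing is the deamination of adenosine to inosine in double-stranded RNA by the ADAR enzymes, and a sequencer reads the inosine as guanosine. RNA becomes double-stranded where a transcript holds a sequence and its reverse complement nearby, so that both arms can pair. FIRRE is known as a nuclear RNA that is transcribed from both the active and the inactive X chromosome, carries many local repeats and binds the nuclear matrix protein HNRNPU. Its introns are spliced from the mature RNA, so intronic sites report on precursor or intron RNA.

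The cells were K562, an established human line from chronic myeloid leukemia, and total RNA was depleted of rRNA and sequenced as strand-specific paired reads. The 96 samples fell into 93 groups, 90 of which were a single sample, so most comparisons set several conditions against several others. The 80 parental samples were treated as follows. Imatinib, etoposide, romidepsin or DMSO, the solvent control, was given for 6, 12, 24, 36 or 48 h (20 samples). DMSO, etoposide, SN-38, talazoparib or cyclophosphamide was given for 6 h and followed by actinomycin D for 0 to 6 h (19 samples). DMSO or etoposide for 6 h was followed by α-amanitin for 0 to 6 h, beside α-amanitin alone and DMSO (11 samples). A pretreatment of 3 h with DMSO or with AZ-20, KU-60019 and NU7441 together was followed by DMSO, talazoparib, Mirin, SN-38 or etoposide (10 samples). DMSO, etoposide or SN-38 for 6 h was washed out for 0, 2 or 6 h (9 samples). Actinomycin D alone was set beside DMSO and untreated cells (5 samples), rapamycin and Torin1 were given for 3 or 6 h (4 samples), and romidepsin alone for 3 or 6 h (2 samples). The other 16 samples were derivative lines kept in doxycycline or water for 2 to 13 days: overexpression lines for AsiSI (4 samples), Cas9 or LINE, and shRNA knock-down lines for CSB, LIG3 or MRE11A (12 samples). Actinomycin D and α-amanitin block transcription, etoposide and SN-38 inhibit topoisomerases II and I, and talazoparib inhibits PARP. The list holds editing levels only, so the K562 label could not be checked against marker genes, and nothing in the labels says whether samples were separate cultures.

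The sequences of the sites that carry the findings are given 5′ to 3′ as FIRRE RNA, with 14 bases on each side and the listed adenosine in capitals. The first 4 are the same adenosine in 4 copies of a repeat, the following pair and the pair after it are adenosines listed in both of 2 copies, and the last is the site found in most samples.
chrX:131792572: cguaggguuucguuAaacgacauccucac
chrX:131746656: cguauugcguuauuAaacgauuuccucac
chrX:131734152: aguauuaugucuuuAagcgauuuccucac
chrX:131728844: cguauuccgucuuuAaacgauuuccucac
chrX:131747392: ugugauuugucuauAgguggcguuuucuc
chrX:131741965: gggccuuugucuauAgguggcguuuuuuc
chrX:131747133: ggcgauauuuugguAuagaaccuggagag
chrX:131741713: ggcggugucuugguAuagaaccuggagug
chrX:131734030: gcgccaccaaacauAgcugccuggagauu

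The sites were not spread along the gene. When sites within 1000 bases of each other were joined they formed 6 clusters, which occupied part of a stretch of 64791 bases in a gene of 142084 bases. Counted from the 5′ end of FIRRE, the clusters held 9, 1, 21, 7, 12 and 5 sites. The cluster of 21 sites was at chrX:131746564-131747627 and the cluster of 12 at chrX:131734030-131734647. With a joining distance of 100 bases there were 17 clusters, the largest of which held 14 sites.

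**Figure D1:**
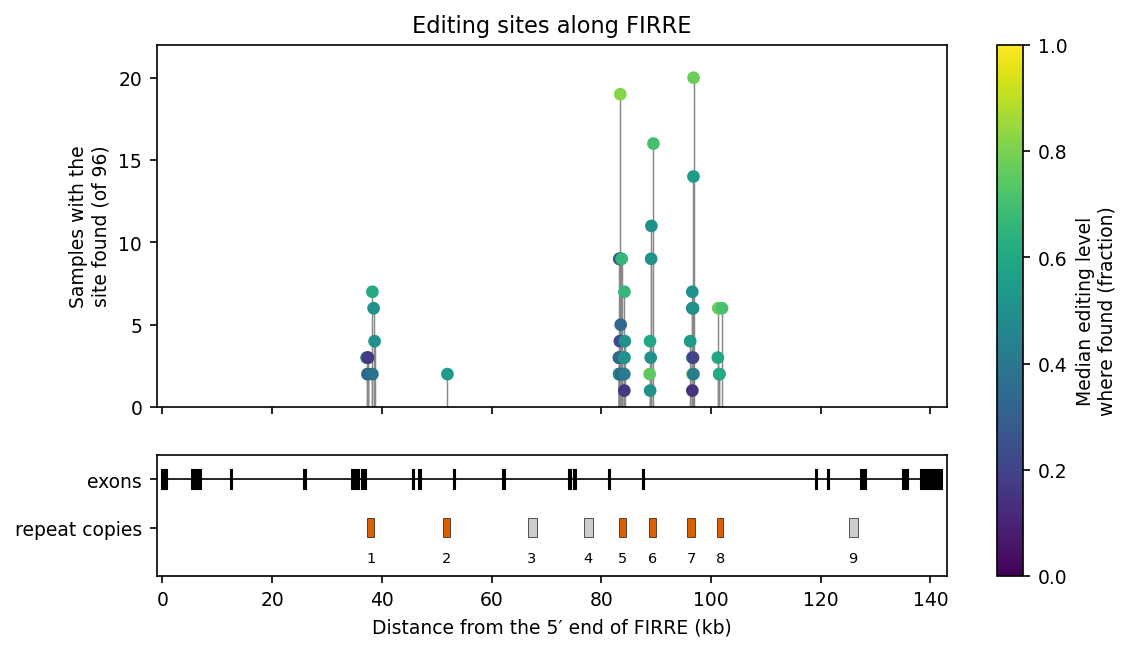
Upper panel: each of the 55 FIRRE sites by its distance from the 5′ end of the gene (kb) and the number of the 96 samples in which it was found, coloured by its median editing level where found. Lower panel: merged exons of FIRRE (black) and the 9 copies of the intronic repeat, numbered from the 5′ end (orange with a listed site, grey without). Of the 55 sites, 53 stand over 6 of the copies, and none stands over an exon.

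The clusters coincided with inverted repeats. A comparison of FIRRE with its own reverse complement gave 14 pairs of arms of at least 50 bases that were no more than 500 bases apart. These arms covered 5.47% of the gene and 4.58% of its adenosines, and 50 of the 55 sites lay in them. With arms up to 1000 bases apart, 51 sites lay in 10.7% of the gene. Of the 14 close pairs, 6 held sites and 8 held none. The pair with most sites had arms at chrX:131746272-131746836 and chrX:131747113-131747673, which were 76.1% identical after reverse complementing and separated by 276 bases. Its 5′ arm held 15 sites and its 3′ arm 6. In the pair at chrX:131733769-131734329 and chrX:131734600-131735151 the split was the other way, with 1 site in the 5′ arm and 11 in the 3′ arm. Sites in annotated repeats or poorly mappable sequence were removed by the authors before the list was made. This limits what the arms without sites can show. The shares of the gene and of its adenosines count all sequence, and how much of it could hold a listed site is unknown.

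When each of the 6 arm pairs with sites was folded with its loop by RNAfold, 38 of the 50 sites, or 76.0%, were predicted to be paired. The share among all 1292 adenosines of these arms was 73.5%. These shares lay close together and were not tested against each other.

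The 6 arm pairs with sites were themselves copies of one repeat. The pair with most sites spans 1402 bases, and FIRRE holds 9 stretches of at least 1000 bases that align to it, numbered here from the 5′ end of the gene. Together they make up 9.0% of FIRRE, and 53 of the 55 sites lay in 6 of them. Copies 1, 2, 5, 6, 7 and 8 held 7, 1, 21, 7, 12 and 5 sites, and copies 3, 4 and 9 held none. Because the query was the stretch with most sites, these counts describe the arrangement and test nothing. Outside copy 5, the longest aligned piece of each copy was between 73.4% and 83.9% identical to it.

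An alignment of the 9 copies showed whether the same adenosine was listed more than once. The 53 sites fell in 44 columns of the alignment, and 6 columns held listed sites of more than 1 copy, 15 sites in all. One adenosine was listed in 4 copies, at chrX:131792572, chrX:131746656, chrX:131734152 and chrX:131728844, the first 4 sequences above, and all 9 copies carry an A there. These sites were found in 7, 2, 6 and 6 samples, and their median levels were 0.613, 0.417, 0.375 and 0.708. The adenosine directly 3′ of it was listed in 3 copies. In another column, chrX:131747133 was found in 9 samples and chrX:131741713 in 11, with median levels of 0.667 and 0.5. In that column 2 of the 9 copies have G. So do 2 copies in the column of chrX:131793450 and chrX:131747532, and 7 in that of chrX:131747392 and chrX:131741965. The other shared columns hold no G.

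**Figure D2:**
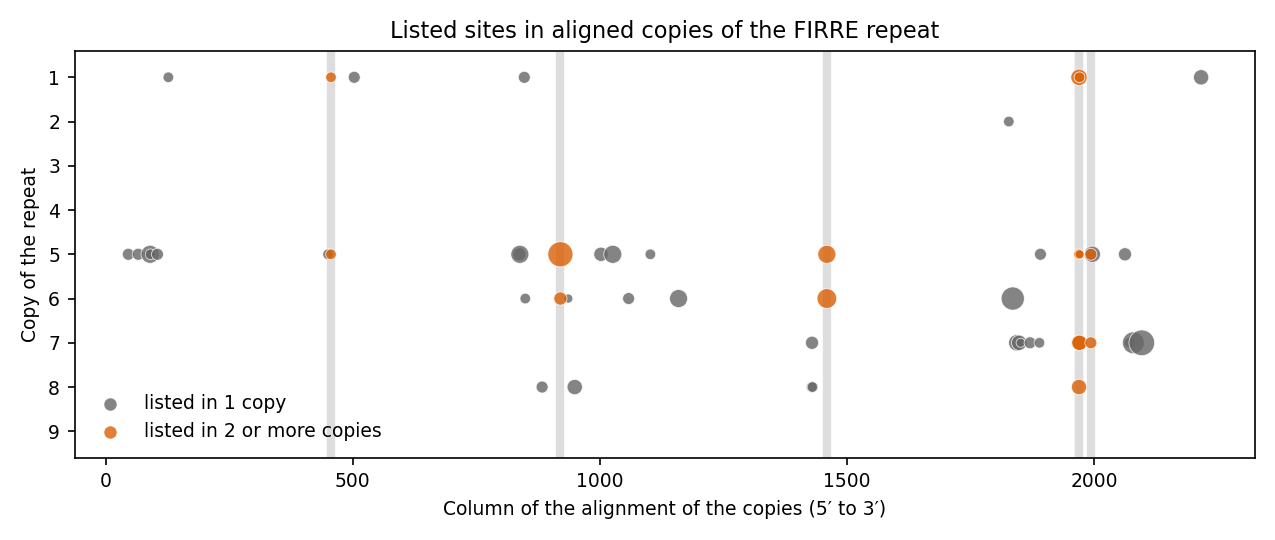
Each of the 53 sites within the 9 copies of the repeat, by alignment column (5′ to 3′) and copy number; point area grows with the number of samples in which the site was found, and grey bands mark the 6 columns with sites of more than 1 copy. Copies 3, 4 and 9 carry no point.

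At 18 of the 53 sites at least 1 other copy has G where the copy with the listed site has A. An inosine and a guanosine of another copy are read alike. Among these 18 were the 2 sites found in most samples: at chrX:131734030 only 1 of the 9 copies has A and 8 have G, and at chrX:131747392 2 copies have A and 7 have G. The median number of samples per site was 4 for these 18 and 3 for the 35 sites with no G in another copy. The medians of their site median levels were 0.525 and 0.464, and they gave 111 and 158 values. For 16 of the 18 sites the 75 bases on each side could be compared in full. Over these 150 bases the nearest copy with G differed from the copy with the listed site at no fewer than 18 positions, gaps included. The authors kept sites where a long read maps uniquely, and asked of the bases around them only a minimum average mappability of short fragments. Whether reads of another copy contribute to these levels was not tested.

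The bases next to the sites were uneven. None of the 55 sites had G directly 5′ of the listed adenosine, whereas 20.9% of the 42904 adenosines of the FIRRE strand do. U stood 5′ of 22 of the 55 sites and of 22.4% of the adenosines, and A of 45.5% and 33.9%. G stood directly 3′ of 52.7% of the sites and of 24.0% of the adenosines. The 76 other sites with levels on chromosome X also had no G on the 5′ side, and 55.3% had G on the 3′ side. U stood 5′ of 55.3% of those sites, more often than in FIRRE, and these shares were not tested. The adenosines of the gene include all those outside the repeat copies, which held 53 of the 55 sites. They also include any in annotated repeats, where the authors listed no site. Some sites are the same adenosine in several copies. Whether the shares follow from the sequence of the repeat was not tested. ADAR enzymes are known to disfavour a 5′ G.

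The sites differed in which tools called them. SPRINT called 89.1% of the FIRRE sites and 51.2% of the 4037 other sites with levels, whereas REDItools called 23.6% and 50.04%. RED-ML called 76.4% and 93.2%. All 3 tools called 23.6% of the FIRRE sites, 13 in number, and 25.1% of the other sites. Part of this was fixed by the authors' rule for the list. It left out sites called by REDItools alone, and asked for RED-ML at unannotated sites and, in some parts of the genome, for SPRINT as well. The 5 unannotated FIRRE sites were all called by RED-ML and SPRINT. These shares are therefore a description.

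In the list an editing level is the fraction of edited reads, and a 0 says that no tool called the site in that sample. It cannot tell an unedited site from one with too few reads, and lower FIRRE expression cannot be told apart from lower editing. The depth at each site is unknown, so no interval can be given for a level. A site is called found here where its level is above 0. The authors listed only sites called in more than a single sample, with a highest level above 0.2 across all their samples. The 96 samples were among these, so the same values served to list the sites and to count them. FIRRE sites gave 276 such values among the 5280 possible, or 5.23%, against 5.90% for the other sites. The median FIRRE site was found in 3 samples, as was the median other site, and 5 FIRRE sites, or 9.09%, were found in 10 or more, against 14.2% of the other sites.

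The site at chrX:131734030 was found most often, in 20 samples, with levels from 0.5 to 1 and a median of 0.775. The site at chrX:131747392 was found in 19 samples with a median of 0.818 and a range of 0.5 to 1. At both sites no level was under 0.5 in any sample in which the site was found.

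Levels were lower at several neighbours. The 14 levels at chrX:131734047, 17 bases from the leading site, ran from 0.167 to 1 with a median of 0.550. At chrX:131741713 the 11 levels ran from 0.242 to 0.833, and their median was 0.5. Of the 5 sites found in 9 samples, chrX:131747292 had the lowest median, 0.250, and chrX:131747133 the highest, 0.667. The medians of chrX:131747473, chrX:131747585 and chrX:131741766 were 0.292, 0.375 and 0.5. The first site along the gene, chrX:131793634, was found in 3 samples with a median of 0.5, and the last, chrX:131728844, in 6 with a median of 0.708. The ranges of neighbouring sites in this order overlap.

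Where a FIRRE site was found its level was high beside the pooled values of the other sites. The median of the 276 values was 0.5 with quartiles of 0.357 and 0.750, and the median of the 22847 values of other sites was 0.333 with quartiles of 0.174 and 0.5. A level of 1 made up 14.5% of the FIRRE values and 1.85% of the others. Several other genes with at least 10 listed sites also had a median level of 0.5 or more, up to 0.703, while most lay below 0.5. A high level where found was thus not particular to FIRRE. These values share samples and sites, so they are given as a description. Levels exist only where a tool called the site, and the depth is unknown. Whether calling favoured high levels at sites with few reads was not tested.

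Neighbouring sites were found both together and apart. In 24 pairs of adjacent sites no more than 30 bases apart, 1 or both sites were found 168 times and both in the same sample 46 times. The pair found most often, chrX:131734030 and chrX:131734047, was found together in 12 of the 22 samples with either. At chrX:131734263 and chrX:131734258 both were found in 5 of 8 samples, and chrX:131747474 was found in 4 samples, always with chrX:131747473. In 4 pairs the sites were never found in the same sample. The sites of a pair often differed in how many samples held them, which limits how often both could be found. For example, chrX:131747585 was found in 9 samples and chrX:131747584 in 2, both times together. Whether sites were found together more or less often than if independent was not tested.

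The samples differed widely. FIRRE sites were found in 56 of the 96 samples, and 10 samples with 10 or more sites held 150 of the 276 values. Those 10 samples covered 48 of the 55 sites and between 1 and 5 of the 6 clusters each, and the cluster of 21 sites was represented in all 10. The highest count, 21 sites, was in the sample given actinomycin D alone for 2 h. The 9 others were after actinomycin D for 1 or 2 h in 4 cases, in the α-amanitin set in 4 cases, and in 1 sample given DMSO for 6 h, whose 11 sites all lay in the cluster of 21.

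Libraries without a drug were just as uneven. Over 12 parental samples that were untreated or had DMSO in steps of at most 6 h, wash-outs included, the number of FIRRE sites ran from 0 to 15 with a mean of 5.42 ± 5.28 (SD). The 2 samples given DMSO for 2 h had 3 and 14 sites, and the 2 given DMSO for 6 h had 5 and 11, each from different sets. Counts lay closer within the wash-outs (0, 0 and 1), the kinase inhibitor set (2 and 2) and the α-amanitin set (14 and 15). In the set with actinomycin D alone they were 3, 7 and 11. The SD therefore joins spread between sets with spread within them, and is not the error of 1 sample within its set. Most conditions had a single sample, so their own error is unknown.

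**Figure D3:**
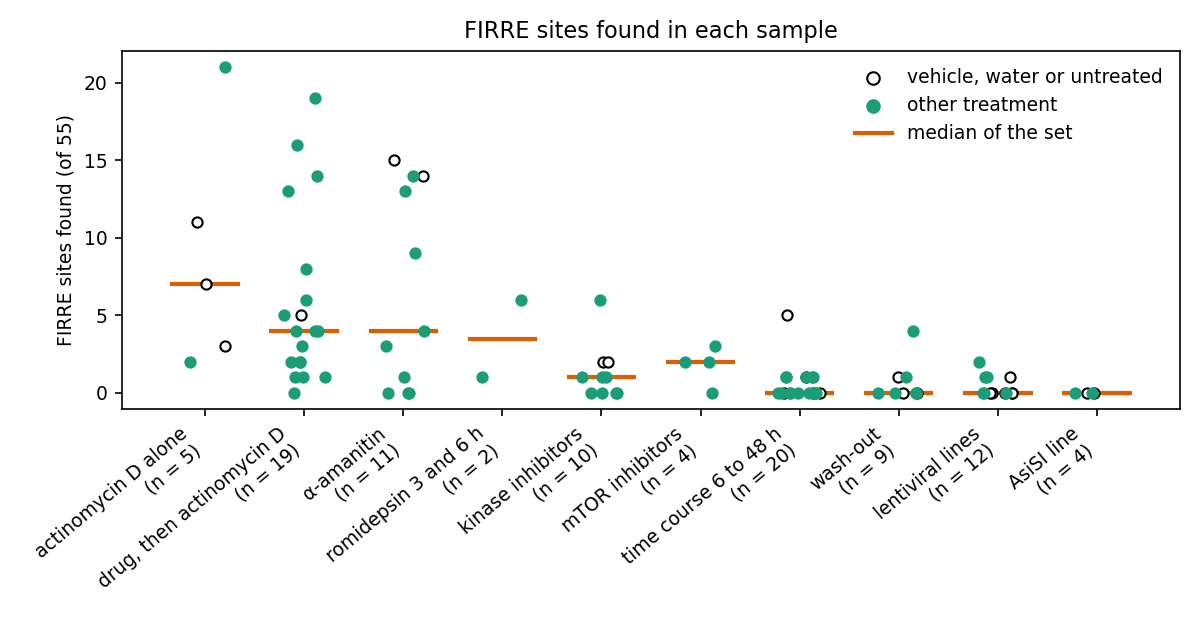
Number of the 55 FIRRE sites found in each of the 96 samples, by set; open circles are vehicle, water or untreated samples, filled circles other treatments, and bars the median of the set. High counts lie in the actinomycin D and α-amanitin sets, where open circles also reach 11 to 15.

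All listed sites found in a sample ranged from 30 to 633, and this number stands here for what could be detected. Over the 96 samples the number of FIRRE sites had little relation to the number of other sites (Pearson r = 0.14, permutation p = 0.191; Spearman rho = 0.25, permutation p = 0.0150, adjusted p = 0.0350 over 7 relations). When the 2 samples with the most extreme numbers of other sites were dropped, r was 0.19. Within sets the relation changed sign. In the 11 samples of the α-amanitin set r was 0.71 (permutation p = 0.0144, adjusted p = 0.0503) and rho 0.89 (permutation p = 0.00052, adjusted p = 0.00364), and r was 0.51 once the 2 most extreme samples were dropped. In the 10 samples with kinase inhibitors or their control r was -0.68 (permutation p = 0.00482, adjusted p = 0.0337) and rho -0.78 (permutation p = 0.00988, adjusted p = 0.0346), with r = -0.71 once 2 were dropped in the same way. In the 4 other sets of at least 6 samples r lay between -0.27 and 0.10, and no adjusted p passed 0.05. The same comparisons were therefore also run on the FIRRE share, the percentage of all sites found in a sample that are FIRRE sites.

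Of 10 treatment comparisons, none passed an adjusted p of 0.05 in exact permutation tests, either for the number of FIRRE sites or for the share. At an unadjusted p under 0.05, 2 comparisons passed for the number and the same 2 for the share. These were etoposide against DMSO in matched pairs, and late against early times in the time course. Neither call held under every alternative.

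Etoposide was set against DMSO in 13 pairs, 12 with the same second treatment and time and 1 in which the drug or DMSO followed a DMSO pretreatment. The number of FIRRE sites was lower with etoposide in 8 pairs, equal in 2 and higher in 3. The mean was 1.69 ± 2.56 (SD, n = 13) with etoposide and 5.85 ± 6.69 with DMSO, a difference of -4.15 sites (exact permutation p = 0.0391, adjusted p = 0.240, two-sided). The share was 0.596% ± 0.815 and 2.07% ± 2.11, and lower in 9 of 13 pairs (exact permutation p = 0.0352, adjusted p = 0.176).

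The pairs differed by set. With α-amanitin for 0, 2, 4 and 6 h, etoposide gave 0, 1, 0 and 0 sites and DMSO gave 15, 4, 3 and 9. With actinomycin D for 0, 1, 2, 4 and 6 h, etoposide gave 8, 6, 3, 2 and 1 sites and DMSO 5, 19, 16, 2 and 0. Thus DMSO was higher in all 4 pairs with α-amanitin, and in the pairs at 1 and 2 h of actinomycin D. In the wash-out pairs at 0, 2 and 6 h etoposide gave 0, 1 and 0 sites and DMSO 1, 0 and 0, and the pair after a DMSO pretreatment gave 0 and 2.

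**Figure D4:**
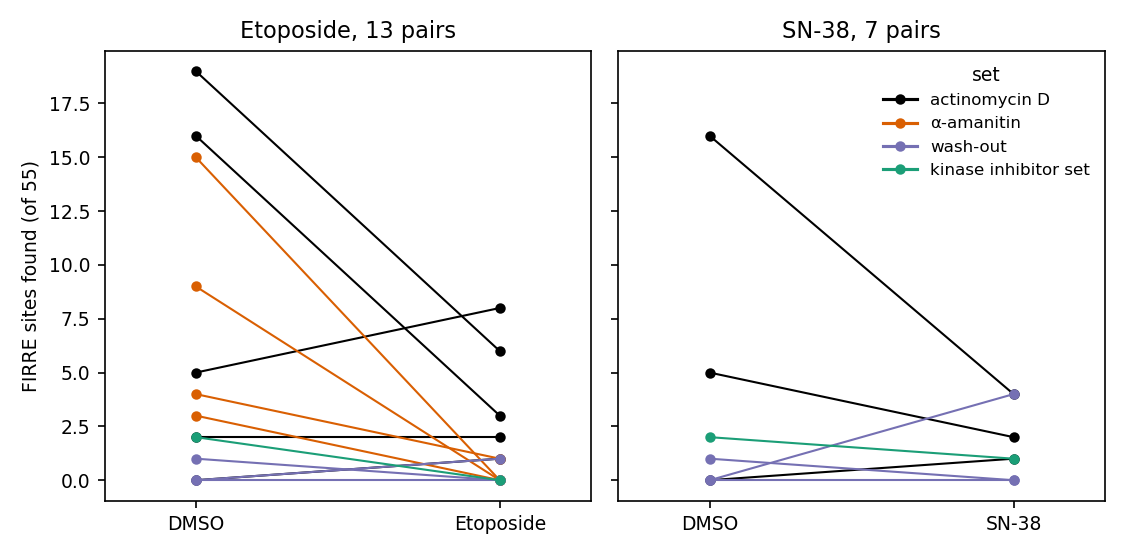
Number of FIRRE sites found with DMSO and with etoposide (13 pairs) or SN-38 (7 pairs), matched in second treatment and time or, in the kinase inhibitor set, given after the same DMSO pretreatment; each line is a pair, coloured by set. The steep falls come from the actinomycin D and α-amanitin sets.

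SN-38, which acts on topoisomerase I, was lower than DMSO in 4 of 7 pairs, equal in 1 and higher in 2. The mean was 1.71 ± 1.70 (SD, n = 7) against 3.43 ± 5.83 (exact permutation p = 0.594, adjusted p = 0.990). The widest pair was at 2 h of actinomycin D, with 4 sites after SN-38 and 16 after DMSO. Without that pair the difference of -1.71 sites was 0. Both drugs share these DMSO samples, and the difference between etoposide and SN-38 was not tested.

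In the wash-out set the 6 samples with either topoisomerase inhibitor had 0.833 ± 1.6 FIRRE sites (SD) and the 3 DMSO samples 0.333 ± 0.577 (exact permutation p = 1, adjusted p = 1). SN-38 with 6 h of wash-out had 4 sites, and the other 8 samples 0 or 1.

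Actinomycin D for 1 to 6 h was set against 0 h after the same drugs. The mean number of FIRRE sites was 6.14 ± 6.46 (SD, n = 14) and 4.80 ± 2.17 (n = 5), and the groups overlapped (exact permutation p = 0.700, adjusted p = 1). The time course within the set was not flat. After DMSO the counts were 5, 19, 16, 2 and 0 at 0, 1, 2, 4 and 6 h. After talazoparib they were 4, 14 and 4 at 0, 2 and 6 h, and after cyclophosphamide 5, 13 and 1. After SN-38 they were 2, 4 and 1, and after etoposide they were highest at 0 h.

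So after every first treatment but etoposide the count was highest at 1 or 2 h and lower again at 6 h, though after SN-38 it reached only 4. Chosen after these values were seen, 1 and 2 h lay 5.91 sites above 0 h (exact permutation p = 0.0960, adjusted p = 0.320) and the difference between 4 and 6 h and 0 h was -3.23 sites (exact permutation p = 0.0177, adjusted p = 0.160). With actinomycin D alone there were 21 sites at 2 h and 2 at 6 h, beside 7 in untreated cells. DMSO in the same set had 3 sites at 2 h and 11 at 6 h. All sites found numbered 359 and 191 with actinomycin D, 339 in untreated cells, and 287 and 238 with DMSO. These single samples were not tested against each other.

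**Figure D5:**
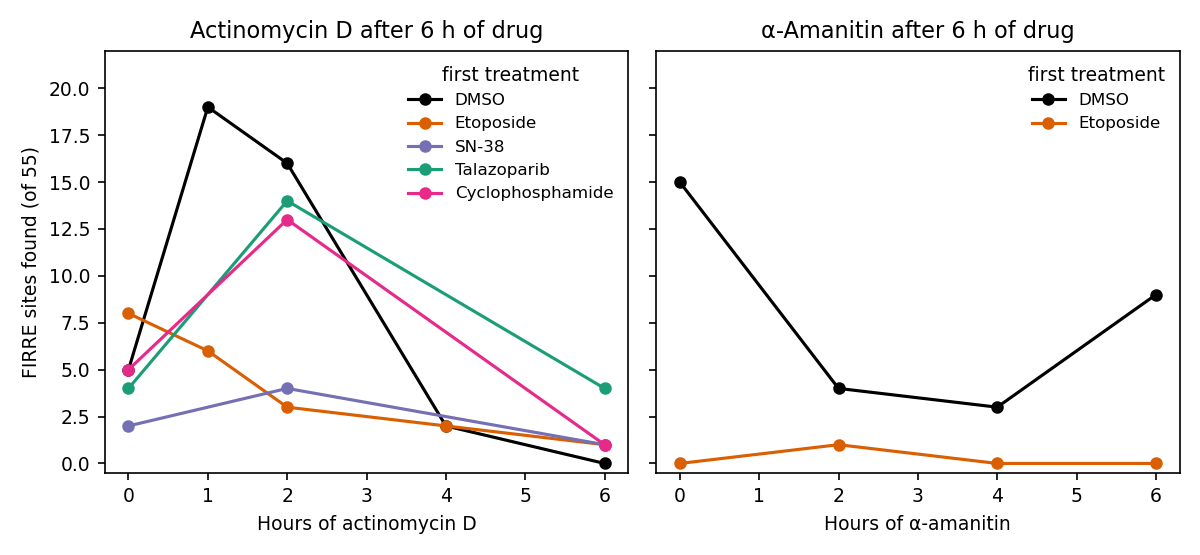
Number of FIRRE sites found against hours of actinomycin D (left) or α-amanitin (right) after 6 h of the first treatment, 1 sample per point. After DMSO the count reached 19 at 1 h of actinomycin D and 0 at 6 h; after etoposide no point exceeds 8.

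α-Amanitin for 2 to 6 h gave 5.50 ± 5.73 sites (SD, n = 8) against 9.67 ± 8.39 (n = 3) without it (exact permutation p = 0.388, adjusted p = 0.970). Leaving out 1 sample moved the difference of -4.17 sites to -9.0 without etoposide at 0 h of α-amanitin, to -2.0 without DMSO for 2 h and to -1.5 without DMSO at 0 h of α-amanitin. With α-amanitin alone there were 14 sites at 2 h and 13 at 6 h, and DMSO for 2 h in the same set had 14. Without the etoposide-pretreated samples the difference was -5.90 sites (exact permutation p = 0.190, adjusted p = 0.635).

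In the time course most FIRRE sites were found in the early samples. At 6 and 12 h the mean was 1.13 ± 1.64 sites (SD, n = 8) and at 24 to 48 h 0.167 ± 0.389 (n = 12), with labels exchanged within each treatment (exact permutation p = 0.0480, adjusted p = 0.240). The share was 0.676% ± 0.948 and 0.0332% ± 0.0790 (exact permutation p = 0.00800, adjusted p = 0.0800). With annotated sites only the p was 0.432 for the number and 0.128 for the share, both by exact permutation. After DMSO the counts were 5, 1, 0, 0 and 0 at 6, 12, 24, 36 and 48 h, while all sites found numbered 173, 154, 337, 492 and 633. FIRRE thus moved against the rest of the list in these samples, and the DMSO sample at 6 h held 5 of the 9 sites of the early group.

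Imatinib, an inhibitor of the BCR-ABL kinase, had 1, 1, 1, 1 and 0 sites at the same times. The mean was 0.800 ± 0.447 (SD, n = 5) against 1.20 ± 2.17 with DMSO (exact permutation p = 0.992, adjusted p = 1). The 10 samples named etoposide or romidepsin in the time course had 0 sites in 9 cases and 1 site in the other (exact permutation p = 0.337, adjusted p = 0.970). They were pooled because their names are in doubt. Of 39 site levels that the study lists for these samples, 37 stand in the column of the other drug and 0 in the named one, within 0.001.

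Pretreatment with AZ-20, KU-60019 and NU7441, inhibitors of ATR, ATM and DNA-PK, gave 0.5 ± 0.577 sites against 1.75 ± 2.87 after DMSO (SD, n = 4 each, exact permutation p = 0.886, adjusted p = 1). The 6 sites of talazoparib after DMSO were the highest count of the set. Rapamycin gave 0 and 3 sites at 3 and 6 h and Torin1 2 and 2. Romidepsin gave 6 sites at 3 h and 1 at 6 h.

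In the derivative lines FIRRE sites were rare. All 4 samples of the AsiSI line had 0, and the 12 others between 0 and 2. Doxycycline was higher than water in 2 of 8 pairs and equal in 6 (0.5 ± 0.756 against 0.125 ± 0.354, SD, n = 8, exact permutation p = 0.5, adjusted p = 0.990). All sites found in these 16 samples ranged from 30 to 129, below most parental samples, and the part of this in the low FIRRE counts was not tested.

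Among the 93 genes with at least 10 listed sites, those whose number of sites found per sample followed FIRRE most closely over the 96 samples included SMU1 (Spearman rho = 0.56), DDX10 (0.52), STXBP5 (0.47) and LINC00534 (0.45). The median rho over these genes was 0.12. The values share libraries and are a description. Of 13 context genes, nuclear lncRNAs and genes of FIRRE or editing biology, 3 held listed sites: LINC00534 with 24, LINC02109 with 19 and MALAT1 with 1. HNRNPU, CTCF, ADAR and ADARB1 held none. The context genes were picked with earlier results of these data known, and the share of all genes that hold a listed site was not computed. The count therefore describes these genes only.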

How the data were processed

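Per the labels and the study's methods, trimmed reads were mapped by the authors with TopHat2 2.1.1 (GRCh38), and Picard 2.0.1 and SAMtools 1.9 served for duplicate removal and sorting (versions as in the submitters' processing notes). REDItools, RED-ML and SPRINT called sites in each sample, and known variants, annotated repeats and poorly mappable regions were removed. From all 130 samples the authors kept sites found in at least 2 of them with a highest level above 0.2. Each deposited value is an editing level, the fraction of edited reads; where several tools called a site, the authors took their mean. The list has 4149 sites; 57 known from Sanger sequencing only have no level. Columns of 34 samples of other series were not used. No 2 of the 96 samples held identical levels.

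FIRRE, its sites and the lists were chosen with earlier results of these data known. Named sites are the 10 found in most samples, any exonic site, and the first and last; other genes named are the 5 with at least 10 sites and the highest rho, and a fixed context list; 1 site and 1 gene that these rules name are not reported here. A sample's value is the number of FIRRE sites above 0, or its percentage of all sites found. Differences of means were tested by two-sided exact permutation over samples or sign exchange in pairs. The tests were checked on simulated counts that were independent between samples, so the check does not cover samples that share a set. The p-values were adjusted by Benjamini-Hochberg over the 10 comparisons of each measure. They measure only the spread between these samples, which may be technical. Correlations used 100000 permutations, or all below 10 samples. Inverted arms and copies came from blastn 2.17.0 (word size 11, E-value 1e-05, hits within 600 bases merged), the alignment from MAFFT 7.526 and folds from RNAfold 2.7.2, on the GRCh38 sequence. Python 3.11.15, numpy 2.4.6 and scipy 1.17.1 were used. Alternatives were a level above 0.2, annotated sites only, sites within 100 bases counted once, medians, blocks, leaving out each sample or pair, and a few added after seeing the data.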

Additional observations from a re-analysis of the deposited data

Results flagged for a closer look

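In 26 groups of 4 to 10 samples or pair differences, 14 results were flagged because the highest or lowest sample lay far from the others (chance flags about 1 in 20; counts of 0 and 1 flag easily). Among the numbers of FIRRE sites, DMSO at 6 h of the time course had 5 and was flagged in each of 3 comparisons, imatinib at 48 h had 0, the sample named romidepsin at 12 h had 1, talazoparib after DMSO had 6, SN-38 with 6 h of wash-out had 4, and the LINE line in water had 1. Among the shares, DMSO at 6 h had 2.89%, again in 3 comparisons, the sample named romidepsin at 12 h 0.704%, talazoparib after DMSO 2.35% and the LINE line in water 1.28%.

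The change in FIRRE sites from 0 h to 1 and 2 h of actinomycin D went opposite ways after DMSO and after etoposide. After DMSO both samples rose, by 11 and 14 sites, and after etoposide the changes were -5 and -2, a difference of 16.0 between the means. This difference was not tested.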

How the results depend on the processing

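No comparison had an adjusted p under 0.05 in any alternative; the lowest, for the share at late against early times with 1 sample left out, was 0.05. Of 136 alternatives, 10 turned the direction, as did 7 of 240 that left out a sample or pair; the cause was not tested. With medians, imatinib minus DMSO became 1 site and 0.234 percentage points, and the actinomycin D difference became -1.50 sites and -0.950 points. Counting sites within 100 bases once gave -0.743 sites and -0.487 points for actinomycin D, and a level above 0.2 gave -0.233 points. The 4 and 6 h samples alone, chosen after seeing the data, gave -3.23 sites and -1.09 points. The wash-out pairs alone gave 0.249 points for etoposide, against -1.47 over all pairs.

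The unadjusted calls of the report also depended on the setting. Late against early times had an exact permutation p of 0.432 for the number and 0.128 for the share with annotated sites only, and for the number 0.0757 without the block and 0.12 without the etoposide and romidepsin samples. The etoposide pairs had 0.0703 with medians (share 0.180) and 0.0541 without the block. Leaving out 1 sample or pair raised the p for the number to at most 0.12 for late against early times, and to at most 0.0781 for the etoposide pairs (share 0.0703).

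Leaving out 1 sample or pair gave ranges that crossed 0 as follows. Without DMSO at 6 h imatinib turned (-0.700 to 0.550 sites, -0.572 to 0.150 points). Without talazoparib after DMSO the kinase inhibitors turned (-1.83 to 0.167 sites, -0.736 to 0.0478 points). Without SN-38 at 6 h of wash-out the wash-out comparison turned (-0.133 to 0.833 sites). Without SN-38 at 0 h the actinomycin D share turned (-0.00877 to 0.507 points), and without the SN-38 pair at 2 h the SN-38 share turned (-1.05 to 0.0735 points). For α-amanitin the ranges were -9.0 to -1.5 sites and -2.85 to -0.110 points, and for SN-38 -2.67 to 0 sites. The etoposide pairs kept their direction throughout (-4.75 to -3.25 sites). For late against early times the range was -1.12 to -0.405 sites, the last without DMSO at 6 h.

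Without the 18 sites at which another copy of the repeat has G, also chosen after seeing the data, every comparison kept its direction. The etoposide pairs then differed by -2.62 sites (exact permutation p = 0.0508, adjusted p = 0.254), and late against early times by -0.583 sites (exact permutation p = 0.432, adjusted p = 0.990) and -0.414 points (exact permutation p = 0.128, adjusted p = 0.640). The clusters numbered 6 or 17 by joining distance. By replicate number, no paired analysis was possible because these numbers do not link the groups compared; the pairs tested here share a line and day or a treatment and time. Depth per site is unknown, which limits every count of sites found.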
